A study of Mus musculus with 4 samples.

Results

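The genes described here make the machinery that carries proteins into the endoplasmic reticulum (ER), adds N-linked sugars to them and folds them. They are 36 of the 41324 genes in the deposited table, chosen by name for their place in the signal recognition particle, the translocon, the signal peptidase, the oligosaccharyltransferase or ER folding. This choice, and that of the lists of companion genes below, was made with earlier results of these data known. RAW264.7 cells, a mouse macrophage line with no genetic change or second agent given in the labels, had either no treatment or 10 µg/ml actinomycin D, which binds DNA and stops transcription, for 2, 4 or 6 h. The study was made to measure mRNA half-lives, and it holds 1 library for each of the 4 times. The labels call the material cytoplasmic RNA, while the extraction they describe names no fractionation step.

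Secretory and membrane proteins begin as a signal sequence that the signal recognition particle (SRP) binds on the ribosome and brings to its receptor on the ER membrane. The chain then passes through the Sec61 channel, signal peptidase cuts the signal off, and oligosaccharyltransferase joins a preformed sugar tree to asparagines. The lectins calnexin and calreticulin hold the glycoprotein while disulfide isomerases pair its cysteines. Macrophages secrete enzymes and cytokines and carry many surface receptors through this route.

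Totals ran from 12762100 counts in the 6 h library to 70289647 in the 4 h library, and the 36 genes took between 0.844% (untreated) and 1.38% (4 h) of all counts. All 8 macrophage markers were detected in every library, with a summed level of 3707 to 5155 CPM, where CPM is the usual library-scaled count, here with TMM scaling. Of 12 markers of other cell types, 8 had 0 counts in every library, among them Cd3e, Epcam, Krt18, Col1a2, Ncr1 and Alb, and the summed level of the 12 was 0.491 to 0.716 CPM. No time point had a replicate, and separate cultures for the 4 times are not mentioned in the labels. A slope over the 4 libraries was therefore tested. Its p-value only sets that slope against the scatter of these 4 libraries about a straight line. All intervals on counts cover counting error only. In these bulk samples fewer cells of a type and less RNA per cell cannot be told apart.

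As a set the ER mRNAs lay toward the upper end of the slopes. Of the 36 genes, 35 reached the abundance filter, a mean of 1 CPM, and 33 of these had a slope above that of the median tested gene. With TMM scaling and edgeR's quasi-likelihood test, 10 rose (Sec61a1, Tram1, Ssr1, Ssr3, Spcs1, Spcs3, Rpn2, Canx, Pdia3 and Pdia6), against 8.03% of all 10837 genes tested, and 1 fell (Srp68), against 16.8%. These 10 make up 28.6% of the 35, and the 11 calls in either direction compare with 24.8% of all genes. The median slope of the 35 was 0.061 log2 per h, against 0.0014 for all tested genes, and 21 of the 35 lay above the upper quartile of all genes, 0.051. Sec62 was the only other member with a slope under 0.

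Under TMM the median gene had a slope of 0.0014, so a rise here is relative and does not tell slower loss from no loss or gain. With the divisors behind the authors' normalized columns the median gene lost 0.52 log2 over 6 h. The slopes of Sec61a1, Rpn2, Canx and Pdia6 turned to negative values there, and those of the other 6 risen genes stayed positive. No member rose by edgeR with these divisors, against 0.664% of all genes. At an unadjusted p under 0.05, 1 member rose, against 133 of all 10837 genes. A change of scaling moves the slopes of all genes by about the same amount, so the gap between the members and the median gene cannot test the scaling. With total counts the median gene gained 0.14 log2 over 6 h, and no member passed in either direction by edgeR. Among all genes only 1.89% rose and 12.2% fell with that scaling. At an unadjusted p under 0.05 there were 1 rise and 0 falls among the members, against 453 and 1896 among all 10837 genes.

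**Figure D1:**
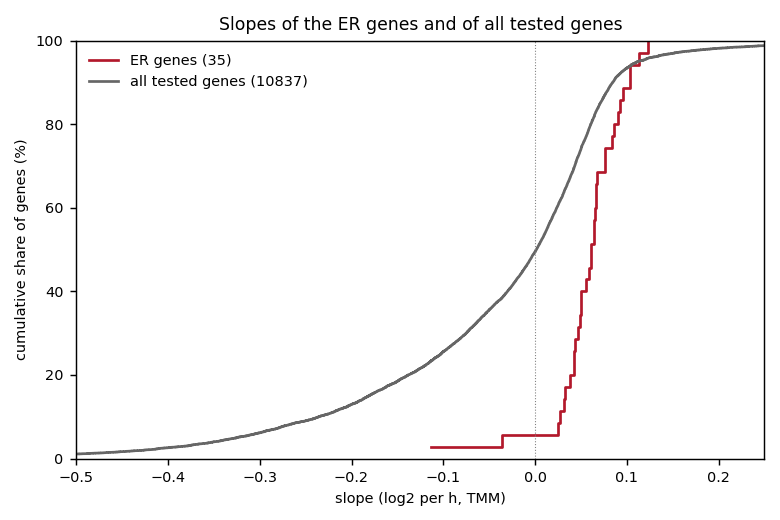
Cumulative share of genes (%, y axis) at or below each slope (log2 per h with TMM, x axis) for the 35 tested ER genes in red and all 10837 tested genes in grey. The ER curve stays near the bottom up to 0, since only Srp68 and Sec62 had slopes below it, and climbs steeply between 0.025 and 0.12, whereas the curve of all genes has a long tail of falling transcripts.

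**Figure D2:**
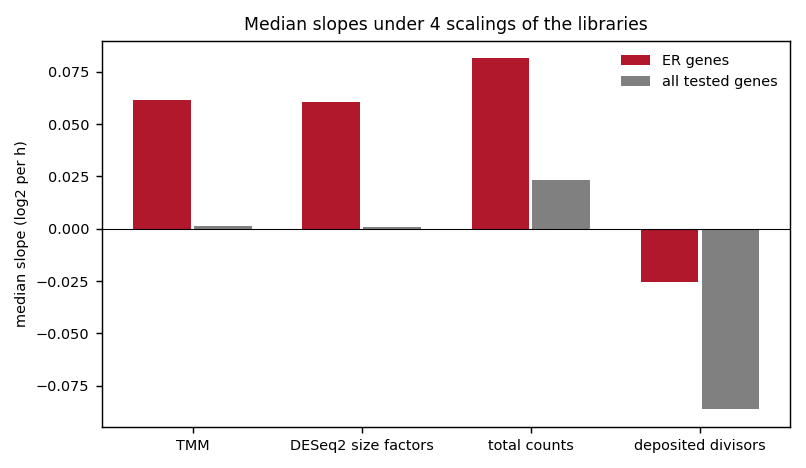
Median slope (log2 per h, y axis) of the 35 ER genes in red and of all tested genes in grey under 4 ways of scaling the libraries. The ER median is 0.061 with TMM, 0.081 with total counts and −0.026 with the deposited divisors; the gap to all genes is nearly fixed by construction, since a scaling moves all genes alike.

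The number of calls changed with the libraries used. Without the 4 h library, the deepest, no member passed by edgeR in either direction, and among all genes 233 fell and 12 rose (2.15% and 0.111%). At an unadjusted p under 0.05 this fit gave 1 fall and 11 rises among the members. The same unadjusted threshold gave 2174 falls and 950 rises among all 10837 tested genes. Without the untreated or the 2 h library 5 members rose, in both cases Spcs1, Spcs3, Ssr1, Ssr3 and Tram1, and Srp68 still fell. Of all genes 6.87% and 4.05% rose in these fits, and 15.2% and 18.1% fell. Canx, Pdia3, Pdia6, Rpn2 and Sec61a1 missed the test in both of those fits. Without the 6 h library 23 members rose, against 10.3% of all genes, and Srp68 alone fell, against 20.7% of all genes. DESeq2's Wald test over all 4 libraries gave 22 rises, against 14.1% of all genes, and 1 fall, against 20% of all genes. Of the calls among all genes 67.6% were falls with TMM, against 86.5% with total counts and 98.6% with the deposited divisors.

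The SRP is a complex of proteins on a small RNA, and its members were the most uneven of any group. Srp68, a large subunit that binds the SRP RNA together with Srp72, stood at 126, 108, 92.3 and 78.2 CPM at 0, 2, 4 and 6 h. Each library lay below the one before, and the 6 h level was 62.3% of untreated (exact 95% interval 58.0 to 66.9%). Srp68 fell with a slope of −0.11 ± 0.012 log2 per h (SE, edgeR adjusted p = 0.0165), which places it at percentile 23.3 of all tested genes, and it missed the test without the 4 h library (adjusted p = 0.0728) or with total counts (0.508). Its gene lies at chr11:116245166-116274217 on the minus strand of the mm10 assembly.

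The other SRP proteins ran the opposite way without passing the test. Srp72, the partner of Srp68, stood at 154, 188.5, 203 and 203 CPM (slope 0.066, edgeR adjusted p = 0.0686). Srp9 and Srp14, the pair that pauses translation while the ribosome is carried to the membrane, ended at 143% and 126% of untreated (edgeR adjusted p = 0.152 and 0.0551). Srp19, which helps the particle assemble, ended at 124% (edgeR adjusted p = 0.0908).

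Srp54a, one of the genes for the GTPase that binds the signal sequence, had 6, 26, 29 and 1 counts and was not tested. Of the 50-base stretches of its mRNA 75.2% also occur in its copies Srp54b and Srp54c, which had 0 counts and 115 to 662 counts. The sources used here do not say how the authors counted reads that match several genes, and the 3 copies cannot be told apart in these counts. The 3 genes lie near each other on chromosome 12.

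The 2 subunits of the SRP receptor, which docks the ribosome at the membrane, both missed the edgeR test. Srpr, the alpha subunit, stood at 186, 206, 214 and 224 CPM, higher at each later time. It ended at 120% of untreated (interval 115 to 126%), with a slope of 0.043 (edgeR adjusted p = 0.0658). Srprb, the membrane-spanning beta subunit, stood at 37.8, 36.9, 43.3 and 41.3 CPM, and its 6 h interval of 98.2 to 121% of untreated includes no change.

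Sec61a1 encodes the pore of the translocon, through which the chain crosses the membrane. It stood at 430, 476, 527 and 558 CPM, rising at each step, and had a slope of 0.064 ± 0.012 (edgeR adjusted p = 0.034), which turned to −0.023 with the deposited divisors. The small tail-anchored subunit Sec61b ended at 121% of untreated (interval 112 to 132%, edgeR adjusted p = 0.104). The small subunit Sec61g had only 24, 60, 72 and 13 counts, and its 6 h interval of 63.0 to 276% of untreated allows either direction.

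Sec61g had far fewer counts than the other 2 channel subunits, Sec61a1 and Sec61b. Per kilobase of exon, untreated cells held 63.8 CPM of Sec61a1, 46.2 of Sec61b and 0.32 of Sec61g, although the channel holds the 3 proteins together. Of the 50-base stretches of the Sec61b and Sec61g mRNAs, 41.0% and 20.5% also occur in other annotated transcripts, so their levels are uncertain. The same holds at over 10% for Srp54a, Srprb, Srpr, Srp9, Sec61a1 and Sec62, while 18 of the 36 share no such stretch.

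The 3 partners of the channel moved apart. Tram1, which helps nascent chains past the channel into the membrane, stood at 197, 243, 275 and 294 CPM and reached 149% of untreated at 6 h (interval 143 to 155%). Its slope of 0.096 ± 0.016 passed the test (edgeR adjusted p = 0.0281) and was 0.0087 with the deposited divisors. Sec63, the J-domain protein that brings the ER Hsp70 to the pore, ended at 117% (edgeR adjusted p = 0.135).

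Sec62, which works with Sec63 on short and post-translationally delivered chains and also serves in turnover of the ER by autophagy, stood at 59.7, 56.7, 55.8 and 50.8 CPM. Its 6 h level was 85.1% of untreated (interval 77.5 to 93.2%), lower than untreated beyond counting error with TMM. The slope of −0.036 ± 0.015 missed the test (edgeR adjusted p = 0.134), and it was −0.12 with the deposited divisors, where it passed (adjusted p = 0.0155), and −0.014 with total counts (0.911), where the 6 h level was 95.5% of untreated. Its gene lies at chr3:30792875-30821263 on the plus strand.

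The translocon-associated protein (TRAP) complex, a set of membrane proteins beside the Sec61 pore that helps some signal sequences enter, lay highest as a group. Ssr1, Ssr2, Ssr3 and Ssr4, its 4 subunits, together held 856, 1079, 1251 and 1280 CPM at 0, 2, 4 and 6 h, the last 149.6% of untreated. Ssr3 stood at 231, 298, 348 and 370 CPM, higher at each time, and rose with a slope of 0.11 ± 0.019 (edgeR adjusted p = 0.0287). Ssr1 stood at 378, 481, 562 and 578 CPM and rose with a slope of 0.10 ± 0.020 (edgeR adjusted p = 0.0356). Both slopes were positive but missed the test with the deposited divisors (0.027 and 0.017).

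The remaining TRAP subunits did not pass. Ssr2 peaked at 4 h, with 195, 238, 275 and 264 CPM (edgeR adjusted p = 0.0675), and Ssr4 ended at 130% of untreated (0.0689). At percentiles 95.1, 93.9, 87.2 and 80.3 of all tested slopes, Ssr3, Ssr1, Ssr2 and Ssr4 all lay above the upper quartile of genes.

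Signal peptidase, the enzyme that trims the signal sequence, gave the steepest rise. Spcs1, a small non-catalytic subunit, stood at 37.0, 49.5, 57.1 and 62.1 CPM and reached 168% of untreated (interval 153 to 185%). Its slope of 0.12 ± 0.022 passed the test (edgeR adjusted p = 0.0318; 0.036 and not past it with the deposited divisors) and lay at percentile 95.8 of all genes. Its gene lies at chr14:30999826-31001672 on the minus strand.

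Spcs3, an accessory subunit needed for cleavage, stood at 245, 309, 358 and 375 CPM, higher at each later time, and rose too (slope 0.10 ± 0.019, edgeR adjusted p = 0.0312; 0.016 and not past the test with the deposited divisors). Spcs2 peaked at 4 h, at 150 CPM, and stood at 107, 137 and 139 CPM at 0, 2 and 6 h (adjusted p = 0.143). The catalytic subunits are encoded by the paralogues Sec11a and Sec11c, which ended at 129% and 119% of untreated (edgeR adjusted p = 0.071 and 0.16). Thus the accessory subunits Spcs1 and Spcs3 passed and both catalytic subunits missed the test, a difference that was not itself tested.

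Oligosaccharyltransferase (OST) moves the sugar tree onto the protein, and its 7 members kept close together, between 113% and 138% of untreated at 6 h. Ribophorin II, Rpn2, stood at 472, 556, 608 and 621 CPM and was the 1 member that rose (slope 0.066 ± 0.016, edgeR adjusted p = 0.0497, close to the threshold), with a slope of −0.021 under the deposited divisors. Rpn1, ribophorin I, ended lowest of the 7, with 542, 602, 657 and 611 CPM (edgeR adjusted p = 0.235). Ostc, which ties one form of the enzyme to the translocon, ended highest at 138% of untreated (edgeR adjusted p = 0.0523).

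The catalytic subunits Stt3a, which works on chains still entering the channel, and Stt3b, which fills in sites that were skipped, ended at 127% and 118% of untreated (edgeR adjusted p = 0.0667 and 0.121). Ddost, a structural subunit, ended at 131% and Dad1, a small subunit first known as a defender against cell death, at 124% (0.0649 and 0.0694). With the deposited divisors 3 OST members fell, namely Rpn1, Stt3a and Stt3b (adjusted p = 0.0184, 0.0353 and 0.0204), where 45.8% of all genes fell.

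The lectin chaperones were among the most abundant of the 36. Per kilobase of exon, untreated cells held 420.5 CPM of Calr, 388 of P4hb, 261 of Pdia3 and 228 of Canx, and the next, Ddost, held 124. Canx, the membrane-bound calnexin, stood at 1071, 1340, 1475 and 1543 CPM, a level of 144% of untreated at 6 h (interval 141 to 147%). It rose with a slope of 0.086 ± 0.021 (edgeR adjusted p = 0.0486), and under the deposited divisors the slope was −0.00091. Calr, its soluble counterpart calreticulin, stood at 1211, 1391, 1512 and 1563 CPM, also higher at each time (slope 0.061, edgeR adjusted p = 0.0638).

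Disulfide isomerases split into a higher and a lower pair. Pdia3 (ERp57), the isomerase that calnexin and calreticulin recruit, stood at 818, 1035, 1156 and 1209 CPM and rose (slope 0.092 ± 0.020, edgeR adjusted p = 0.0406), with a slope of 0.0055 under the deposited divisors. Pdia6, which also binds the stress sensors of the ER, stood at 448, 551, 617 and 634 CPM and rose (0.083 ± 0.018, edgeR adjusted p = 0.0413), with −0.0034 under the deposited divisors. Pdia4 peaked at 4 h and ended at 119% of untreated (edgeR adjusted p = 0.0815).

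P4hb, the classical protein disulfide isomerase and a subunit of collagen prolyl hydroxylase, was flattest of the 4 after 2 h. It stood at 1110, 1245, 1242 and 1260 CPM, at 114% of untreated at 6 h (edgeR adjusted p = 0.257). Both Pdia4 and P4hb fell with the deposited divisors (slopes −0.041 and −0.059, adjusted p = 0.0367 and 0.0216).

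**Figure D3:**
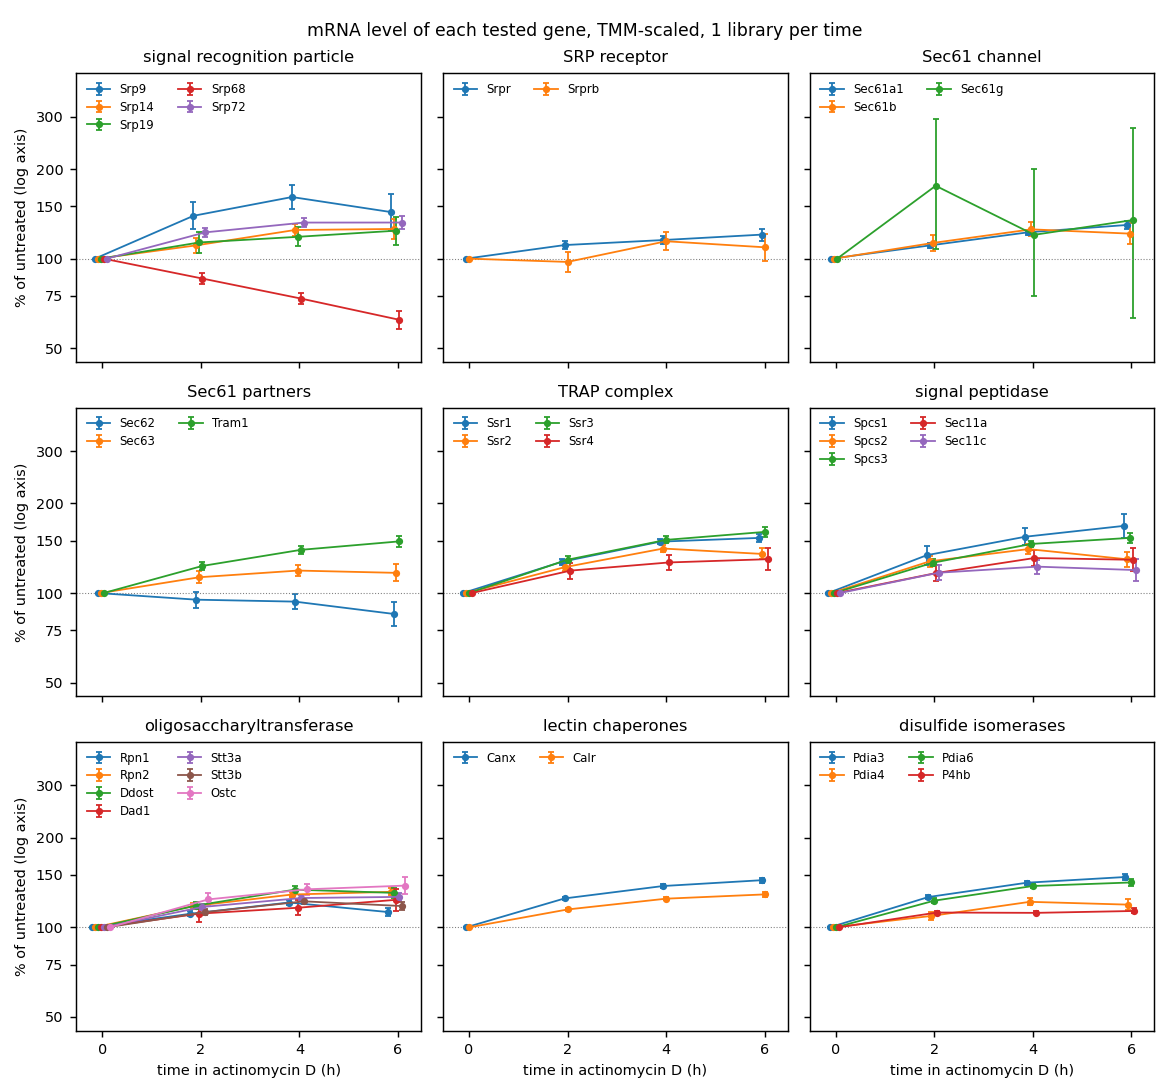
Level of each tested ER gene as percent of the untreated library (y axis, log) against hours in actinomycin D (x axis), with 1 panel per group of genes. Points are single libraries with TMM scaling and bars are exact 95% counting intervals. Only Srp68 and Sec62 lie below 100% at 6 h, and the bars of Sec61g span both directions.

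**Figure D4:**
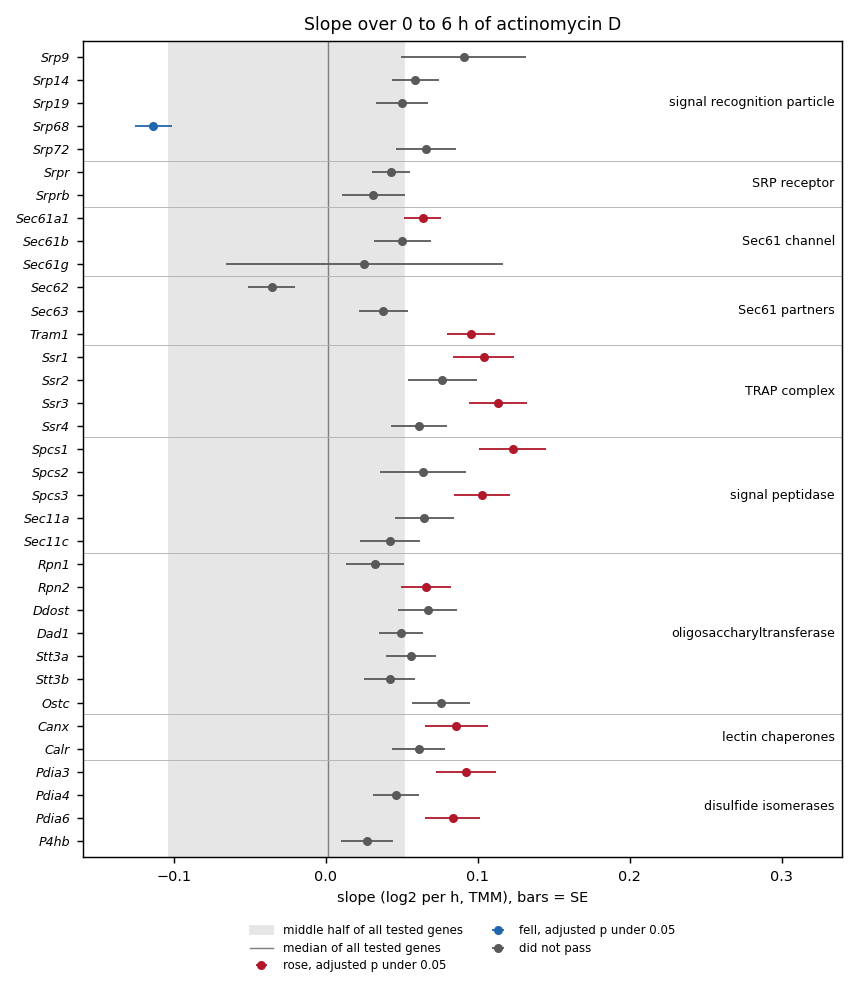
Slope of each tested ER gene (log2 per h with TMM, x axis) with its SE, grouped by role, red for the 10 genes that rose, blue for Srp68, which fell, and grey for those that missed the test. The shaded band runs from the lower to the upper quartile of all tested genes (−0.10 to 0.051) and the line marks their median.

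Genes of ER folding carry in their promoters a known switch, the ER stress response element, which transcription factors of the unfolded protein response bind with NF-Y. It was searched as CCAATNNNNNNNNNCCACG on both strands of RefSeq promoter windows of the GRCm38.p6 build, which run from 250 bases before each gene start to 50 after. Of the 36 genes 28 had a window, and 3 of these held the element, all folding genes. That is 10.7% of the 28, against 7.77% of 103 companion genes (8, Hspa5, Hsp90b1 and Syvn1 among them), 0.154% of 7798 tested genes (12) and 0.119% of all 32851 windows. The 3 are shown because they put this letter sequence into 3 of the most abundant members, with the fixed letters in capitals and the free ones in lower case.
Canx: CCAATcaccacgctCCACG
Calr: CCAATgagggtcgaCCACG
Pdia6: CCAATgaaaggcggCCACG
They begin 145, 162 and 98 bases before the RefSeq gene start, at chr11:50325800-50325818, chr8:84847075-84847093 and chr12:17266491-17266509. The genes are on the minus, minus and plus strand, and each element reads along its gene except that of Calr, which reads against it. A match describes letters, and with transcription blocked the data do not bear on the use of these elements. Canx and Pdia6 rose along the course with TMM and Calr missed the test.

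Ratios between partner mRNAs of the same library need no scaling. They were taken for 7 pairs of known partners or paralogues, which were chosen after the values had been seen. The count ratio of Srp68 to Srp72 was 0.817, 0.571, 0.454 and 0.385 at 0, 2, 4 and 6 h, so the 6 h ratio was 0.471 of the untreated one. Intervals of 0.357 to 0.415 in the 6 h library and 0.782 to 0.853 in the untreated one do not overlap. The ratio of Sec62 to Sec63 was 0.654, 0.55, 0.514 and 0.476, again lower in each later library.

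Canx gained slightly on Calr, with ratios of 0.885, 0.964, 0.976 and 0.987. Srp9 to Srp14 and Srprb to Srpr went up and down without order. Stt3b to Stt3a stood at 0.919, 0.883, 0.896 and 0.856, and Sec11c to Sec11a ended at 0.923 of its untreated ratio. An exact permutation test over the 24 orders of the 4 libraries cannot go below p = 0.0833 (two-sided). Srp68 to Srp72, Sec62 to Sec63 and Canx to Calr reached that smallest p (0.194 after Benjamini-Hochberg adjustment over the 7 pairs). The other 4 pairs had p of 0.167 to 0.583 by this test. Since the pairs were chosen with the values known, these p-values are no evidence for a change in the ratios.

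**Figure D5:**
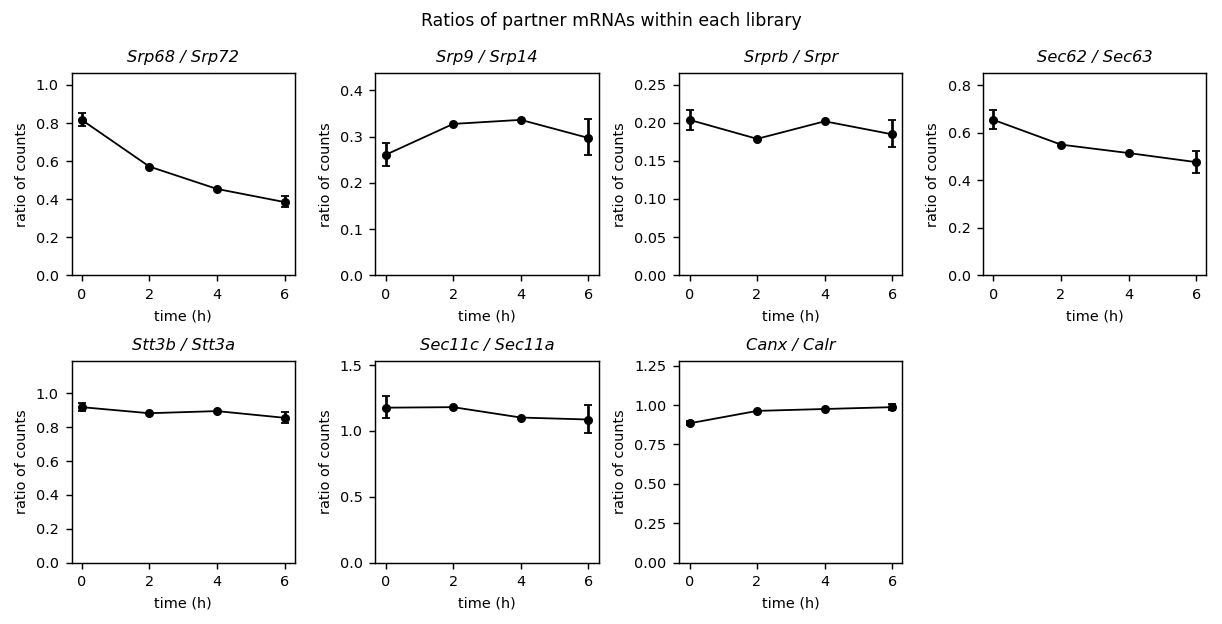
Ratio of the counts of 2 partner genes in the same library (y axis, from 0) against hours in actinomycin D (x axis) for 7 pairs, with exact 95% counting intervals at 0 and 6 h. The ratio of Srp68 to Srp72 drops to 0.385 at 6 h, against 0.817 untreated, while the other ratios at 6 h lie between 0.728 and 1.14 of their untreated value.

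Most of the gain over the typical gene came early. Between 0 and 2 h 32 of the 35 members went up, with a median step of 0.23 log2, and between 2 and 4 h 31 went up with a median of 0.14. Between 4 and 6 h 21 went up and 14 went down, with a median step of 0.021. Across all tested genes 51.1%, 49.9% and 49.4% went up in the same 3 steps. Srp68 and Sec62 were the 2 members that went down at each step, as did 22% of all tested genes. Up at each step went 19 members, against 20.9% of all tested genes.

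A curved course was tested as a quadratic term, with 1 residual degree of freedom. Of the 35 members 17 bent downward, that is, they levelled off, against 10.7% of all tested genes, and 0 bent upward, against 18% of all genes (28.6% in either direction), since the quadratic term was below 0 in all 35. Slope and bend together passed in 32 members, against 67.7% of all genes. The bends depend on the scaling, since 34 members bent with total counts and 1 with the deposited divisors. These counts stand without the share of all genes under the same scaling, so they do not set the members apart from other genes. Among the bends were Srp9 and Spcs2, which stood lower at 6 h than at 4 h (edgeR adjusted p = 0.00897 and 0.00163). Srp68 and Sec61a1 followed a straight line on the log scale as closely as the test could see (edgeR adjusted p of the bend 0.906 and 0.466).

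The half-lives in the authors' deposited table rest on the untreated, 2 h and 4 h libraries. A line through the logarithm of the normalized values, fixed at the untreated value and fitted to 2 and 4 h, gave the half-life in the authors' deposited table within 0.1% for 14957 of 14957 genes, and the same line fitted to 6 h for 24. Srp68 and Sec62 have the shortest positive half-lives among the members. In the authors' deposited table Srp68 has a half-life of 4.30 h (R2 0.998) and Sec62 one of 6.76 h (R2 0.989), and they are the 2 members with a positive half-life under 10 h. Next in the authors' deposited table come Srprb at 11.6 h, P4hb at 13.8 h, Srpr at 15.5 h and Dad1 at 16.1 h. In all, 14 members have between 10 and 30 h and 7 over 30 h in the authors' deposited table, longer than the 6 h observed.

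For 13 of the 36 genes the authors' deposited table gives a negative half-life, which a fit that rises with time yields, against 9.12% of the 10836 tested genes with a value there. These 13 are Srp9, Ssr1, Ssr2 and Ssr3, Spcs1, Spcs2 and Spcs3, Tram1, Canx, Pdia3 and Pdia6, and also Srp54a and Sec61g, whose counts are too low to read. Among positive values the median in the authors' deposited table is 21.6 h for the members and 7.43 h for the tested genes. With the 6 h value included, the fixed line gave 4.72 h for Srp68 and 7.50 h for Sec62. For Ssr2 it gave 158 h, where the authors' deposited table has −148 h, so the sign for that nearly flat course turns on the 6 h library. The sign turned likewise for Pdia6 (−1268 to 662 h), Spcs2 (−82.5 to 92.4 h), Sec61g (−75.2 to 218 h) and Srp54a (−4.34 to 9.15 h). Among the 13 negative values the authors' R2 was lowest for Sec61g (0.011), Pdia6 (0.055) and Canx (0.136).

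In length, content of A and T and the AU-rich motifs below, the 3' untranslated regions (UTRs) of the members were close to those of other genes. In GENCODE M21 annotation the median 3' UTR of the 35 members was 952 bases, against 1026 in the 9551 tested genes with an annotated 3' UTR. Its median content of A and T was 58.6%, against 55.5%. The pentamer ATTTA, the core of AU-rich decay elements, occurred in 71.4% of members and 67.9% of tested genes. Its longer form TATTTAT, which always contains the pentamer, occurred in 9 members (25.7%), against 28.6% of tested genes. A further motif searched, TGTANATA with N for any base, was less common in members (6, or 17.1%) than in tested genes (25.3%). Tested genes with and without TGTANATA had median slopes of −0.025 and 0.0072 log2 per h, and members 0.049 and 0.064.

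Members with and without TATTTAT had median slopes of 0.066 and 0.061 log2 per h, against −0.016 and 0.0061 for tested genes with and without it. Srp68 has a 3' UTR of 537 bases with 0 copies of ATTTA, and Sec62 one of 2297 bases with 8 copies. The sites below, with the heptamer in capitals and written as DNA along the mRNA, show that the same letters stand in Sec62, which ended at 85.1% of untreated, and in Ssr1, Ssr3 and Spcs3, which rose with TMM and had positive slopes that missed the test with the deposited divisors.
Sec62: gcactcaaTATTTATttgcaaga
Ssr1: tgtcctccTATTTATgactcctt
Ssr3: gctgttatTATTTATaataggag
Spcs3: gaaacacgTATTTATattatctt
They lie at chr3:30820640-30820662 on the plus strand and at chr13:37976496-37976518, chr3:65381626-65381648 and chr8:54522975-54522997 on the minus strand of GRCm38. A match of letters is not evidence that a decay factor binds.

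The 7 lists of companion genes, 118 tested genes in all, show the surroundings of the set. Of the 118, 18 rose (15.3%, against 8.03% of all tested genes) and 6 fell (5.08%, against 16.8%) by edgeR with TMM. Their median slope was 0.040 log2 per h, so their middle lay below the 0.061 of the 36 chosen genes and above the 0.0014 of all genes. Among accessory OST subunits Magt1, a thioredoxin-like subunit of the Stt3b form, reached 158% of untreated (slope 0.11, edgeR adjusted p = 0.0296; 0.023 and not past the test with the deposited divisors). Of the 8 tested genes of that list 3 rose (37.5%, against 8.03% of all tested genes). From the same list 0 fell, against 16.8% of all genes (1 fall at an unadjusted p under 0.05, 0 by DESeq2).

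Paralogues could differ widely. Tram2, the paralogue of Tram1, stood at 18.7, 11.6, 9.60 and 10.3 CPM and ended at 55.2% of untreated (interval 45.2 to 67.1%), where Tram1 ended at 149%, although the slope of Tram2 missed the test (−0.15, edgeR adjusted p = 0.0795; −0.23 and 0.0445 with the deposited divisors). Among 23 genes of tail-anchored and multipass insertion 5 rose (21.7%, against 8.03% of all tested genes). From this list 0 fell, against 16.8% of all genes (1 at an unadjusted p under 0.05, 0 by DESeq2). Bag6 and Nomo1, which rose, were the most abundant (129% of untreated each), and their slopes turned to −0.026 and −0.024 with the deposited divisors. Caml, the receptor part for tail-anchored proteins, ended at 38.0% of untreated with a slope of −0.26 that missed the test (edgeR adjusted p = 0.0836).

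The sugar tree is built before OST uses it, and its 22 genes gave 3 rises (13.6%, against 8.03% of all tested genes) and 1 fall (4.55%, against 16.8%). Alg10b, which adds the last glucose, reached 165% of untreated (slope 0.12, edgeR adjusted p = 0.02) and also rose with the deposited divisors (0.033, adjusted p = 0.0414), but not with total counts (adjusted p = 0.292). The named companions that rose, Magt1, Bag6, Nomo1, Edem1 and Dnajc10 among them, all missed the test with total counts. Alg11, a mannosyltransferase, ended at 39.5% of the untreated level and fell (edgeR slope −0.24, adjusted p = 0.0359). Of 11 trimming and sorting genes 2 rose (18.2%, against 8.03% of all tested genes) and 1 fell (9.09%, against 16.8%). Mogs, the glucosidase that makes the first cut on the transferred tree, ended at 49.7% of the untreated level and fell (edgeR slope −0.17, adjusted p = 0.0148), and Edem1, which directs misfolded glycoproteins to degradation, rose to 154% (slope 0.11, edgeR adjusted p = 0.0176; 0.019 and not past the test with the deposited divisors).

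Folding helpers were mixed. Of 16 Hsp70 and Hsp90 chaperone genes 1 rose (6.25%, against 8.03% of all tested genes), namely Dnajc10. It reached 149% of untreated (edgeR adjusted p = 0.0344) and missed the test with the deposited divisors. From the same list 0 fell, against 16.8% of all genes (3 at an unadjusted p under 0.05, 1 by DESeq2). The ER Hsp70 gene Hspa5 (BiP) stood at 1664, 1462, 1415 and 1345 CPM and ended at 80.8% of untreated (edgeR adjusted p = 0.0931; 0.0188 with the deposited divisors), while its Hsp90 counterpart Hsp90b1 ended at 131% (0.078). Of 21 oxidative folding and proline isomerase genes 4 rose (19%, against 8.03% of all tested genes) and 1 fell (4.76%, against 16.8%). The fallen one was the thioredoxin-domain gene Txndc11, which ended at 39.8% of the untreated level (edgeR slope −0.23, adjusted p = 0.0168).

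ER-associated degradation, which clears misfolded proteins, was the list with the most falls, though their share was near that of all tested genes. Of 17 tested genes 3 fell (17.6%, against 16.8% of all tested genes). From the same list 0 rose, against 8.03% of all genes (4 at an unadjusted p under 0.05, 3 by DESeq2). Syvn1, the ubiquitin ligase of the pathway, stood at 53.3, 27.8, 17.9 and 14.1 CPM, 26.5% of untreated at 6 h, and fell with a slope of −0.32 ± 0.036 (edgeR adjusted p = 0.0176). Herpud1, a membrane scaffold of the ligase, and Faf2, which recruits the extraction ATPase, also fell (slopes −0.20 and −0.096, edgeR adjusted p = 0.0376 and 0.0347), whereas Sel1l, the partner of Syvn1, stood at 103% (adjusted p = 0.538). Syvn1 and Mogs passed the test without any one of the 4 libraries, but with total counts Mogs and Faf2 missed it (adjusted p = 0.228 and 0.563). Alg11, Txndc11, Herpud1 and Faf2 missed it without the 4 h library (adjusted p = 0.0827, 0.0506, 0.0854 and 0.127).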

How the data were processed

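rRNA-depleted RNA-seq libraries from 4 times, 1 each, were analysed from one table. Per the submitters' processing notes, STAR 2.5.3a, featureCounts and Subread 1.6.3 were used with mm10; annotation release, strand setting and treatment of multiply matching reads are not named there. The authors deposited raw counts per gene, used as they stand, and a normalized signal, which recomputation showed to be those counts divided by 1 number per library (1300, 2250, 4476 and 748). The half-life and R2 columns were taken as a score of the authors, and their fit was worked out from the values. Columns without a sample numbered 0.

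Slopes were fitted across all genes with edgeR 4.0.16 in R 4.3.3 (TMM, mean CPM of at least 1, quasi-likelihood test, Benjamini-Hochberg adjusted p under 0.05, 2 residual degrees of freedom), and SEs follow from the F statistic. Changes between libraries are on a log2 CPM scale (prior count 0.5). Percentages of untreated have exact conditional binomial 95% intervals. DESeq2 1.42.0 was an alternative. Fits were tested on simulated data. Symbols were matched to GENCODE M21; 88.1% of tested symbols gave a 3' UTR, from 1 principal transcript each. The members and all lists were chosen with earlier results of these data known. Named companions are, per list, the 2 most abundant, and the steepest fall and rise at a mean CPM of at least 5; other companions, and the 7 pairs, were chosen after values were seen.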

Additional observations from a re-analysis of the deposited data

How the results depend on the processing

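The scaling decided the sign of most slopes. With the deposited divisors 10 of the 35 tested members fell and 0 rose by edgeR. Of all 10837 tested genes 4963 fell (45.8%) and 72 rose (0.664%) there. At an unadjusted p under 0.05, 13 members fell and 1 rose, against 6376 and 133 of all tested genes. With these divisors 1 member bent, and the members' median slope was −0.026 log2 per h. The members' slopes that became negative there were Srp14 −0.029, Srp19 −0.037, Srp72 −0.021, Srpr −0.044, Srprb −0.057, Sec61a1 −0.023, Sec61b −0.037, Sec61g −0.063, Sec63 −0.049, Ssr2 −0.011, Ssr4 −0.026, Spcs2 −0.023, Sec11a −0.023, Sec11c −0.045, Rpn1 −0.055, Rpn2 −0.021, Ddost −0.020, Dad1 −0.038, Stt3a −0.031, Stt3b −0.045, Ostc −0.011, Canx −0.00091, Calr −0.026, Pdia4 −0.041, Pdia6 −0.0034 and P4hb −0.059 log2 per h. Among the named companions, slopes that became negative there were Krtcap2 −0.041, Nomo1 −0.024, Bag6 −0.026, Nus1 −0.0059, Mlec −0.041, Hsp90b1 −0.022, Txndc5 −0.033, Vcp −0.023, Sel1l −0.078 and Rnf5 −0.022. Slopes of the other companions under these divisors are not listed here. The 6 h levels of the risen genes Sec61a1, Rpn2 and Pdia6 became 90.6%, 91.9% and 98.8% of untreated. With total counts 0 members fell and 0 rose (0 and 1 at an unadjusted p under 0.05), against 12.2% and 1.89% of all tested genes. With that scaling 34 members bent, the members' median was 0.081, and 205 genes of the table rose. The counts of bent members here stand without a share of all genes. DESeq2's Wald test gave 22 risen members and 1529 risen genes (14.1% of those tested). DESeq2 size factors, no filter on low counts and a mean CPM of at least 5 gave 8 to 12 risen members and 1 fallen one. Of all tested genes 4.52% to 10.3% rose and 11.9% to 19.6% fell under these settings. Leaving out each library in turn, with 1 residual degree of freedom, gave 0 to 1 fallen and 0 to 23 risen members and medians of 0.036 to 0.082. Over all genes these fits gave 233 to 2248 falls (2.15% to 20.7%) and 12 to 1120 rises (0.111% to 10.3%). Sec61g, with 13 to 72 counts, had slopes of −0.15 to 0.070 when 1 library was left out, the lowest without the untreated library. The causes were not tested. No paired analysis was possible because each time has 1 library. Depth limits Sec61g and Srp54a most, and the 6 h library, the shallowest, sets the width of the 6 h intervals.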

Other observations

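The RNA that the SRP proteins bind is transcribed from the 7SL genes, and both genes carried by the table were nearly empty. Rn7s1 had 0, 4, 6 and 2 counts at 0, 2, 4 and 6 h and Rn7s2 had 2, 0, 2 and 1, so neither was tested, and no level of the SRP RNA can be read beside its proteins.

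Sec61a2, the paralogue of the pore gene Sec61a1, stood at 11.3, 14.9, 13.3 and 15.9 CPM, far under the 430 to 558 CPM of Sec61a1, with no order across the times. The row of Srp54c held 231, 347, 662 and 115 counts, but 93.9% of its 50-base stretches also occur in Srp54a or Srp54b, so these counts cannot be given to 1 copy.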
